A study of Mus musculus with 9 samples.

Results

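The junctions between endothelial cells of the mouse lung were described through 8 genes of adhesion and tight junction proteins: Cdh5, Pecam1, Cldn5, Ocln, Tjp1, Esam, F11r and Jam2. These were chosen by name, with earlier results of these data known. Each of the 8 was found among the 56748 genes of the deposited count table. All 8 passed the filter on low counts, which kept 19486 genes. The libraries came from cells sorted as negative for DAPI and CD45 and positive for CD31, taken from the lungs of adult C57BL/6 mice aged 6 weeks. There were 3 libraries for each of the genotypes WT, DNMAML and Notch1f/f. By common usage DNMAML stands for a truncated Mastermind-like protein that acts as a dominant negative and blocks transcription through all Notch receptors, and Notch1f/f for Notch1 alleles flanked by recombination sites. The labels used here name no recombinase, driver or inducing agent, and they do not state that each library was made from a mouse of its own. The p-values therefore measure only the spread between these libraries, which may be technical in part. By the Y-linked gene given below each genotype held libraries of both sexes, so its libraries did not all come from the same mouse. CD31, the sorted surface protein, is the product of Pecam1, so the presence of that gene checks the sort and is no result.

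Endothelial cells are held together by adherens junctions, in which VE-cadherin (Cdh5) binds its like on the neighbouring cell, and by tight junctions, in which claudins and occludin seal the space between membranes and the scaffold ZO-1 (Tjp1) ties them to actin. Members of the immunoglobulin superfamily, among them PECAM-1, ESAM and the junctional adhesion molecules JAM-A (F11r), JAM-B (Jam2) and JAM-C (Jam3), sit at the same borders and guide passing leukocytes. In the lung these contacts form the barrier that keeps fluid out of the air spaces. Notch signalling between endothelial cells is known for its part in arterial fate and in the choice between sprouting and quiescent cells.

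Total counts ran from 15522100 to 27842496 per library. Notch1, the gene of the Notch1f/f allele, had 766, 909 and 811 CPM in the WT libraries, where CPM is the count relative to the scaled size of the library. DNMAML libraries had 679, 872 and 777 CPM of Notch1, and those of Notch1f/f 70.8, 29.5 and 176 CPM. Maml1 had 58.3 to 84.4 CPM over the 9 libraries, and gene totals do not show whether a transgene was present. By the Y-linked gene Ddx3y, at 106.8 to 133 CPM in 4 libraries and at most 0.225 in the others, each genotype included both sexes. WT replicate 2, DNMAML replicate 2 and Notch1f/f replicate 1 stood apart from the other libraries of their genotype in immediate early genes, whose 10 members summed to 2902 to 3905 CPM there and to 7006 to 12123 CPM elsewhere. The 13 endothelial markers summed to 16540 to 20844 CPM, and none of them was at 0 in any library. That list includes Cdh5, Pecam1, Cldn5 and Esam.

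The 8 junction genes together took 1.21% to 1.44% of the scaled counts of a library. Levels of different genes were compared per kilobase of exon, as CPM divided by the exon length in the deposited table. On that scale Cdh5 was first in WT with 1540.4 ± 68.6 CPM per kb (SD, n = 3), above every value of the next gene in all 9 libraries. Pecam1 followed with 613 ± 31.2 and Cldn5 with 543 ± 39.7 CPM per kb. The ranges of Pecam1 and Cldn5 overlapped in WT, so their order is within their spread. Esam and Tjp1 came next with 198 ± 7.81 and 182 ± 9.31 CPM per kb in WT, and they overlapped as well. F11r had 57.1 ± 8.82, Jam2 28.0 ± 2.35 and Ocln 22.3 ± 1.94 CPM per kb in WT. F11r, Jam2 and Ocln did not overlap with their neighbours in this order among the WT libraries, while over all 9 libraries Ocln and Jam2 did. Reads over alternative exons of long genes make the length approximate. Ocln was thus the lowest of the 8, yet in WT it was above 89.7% of the tested genes on this scale.

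**Figure D1:**
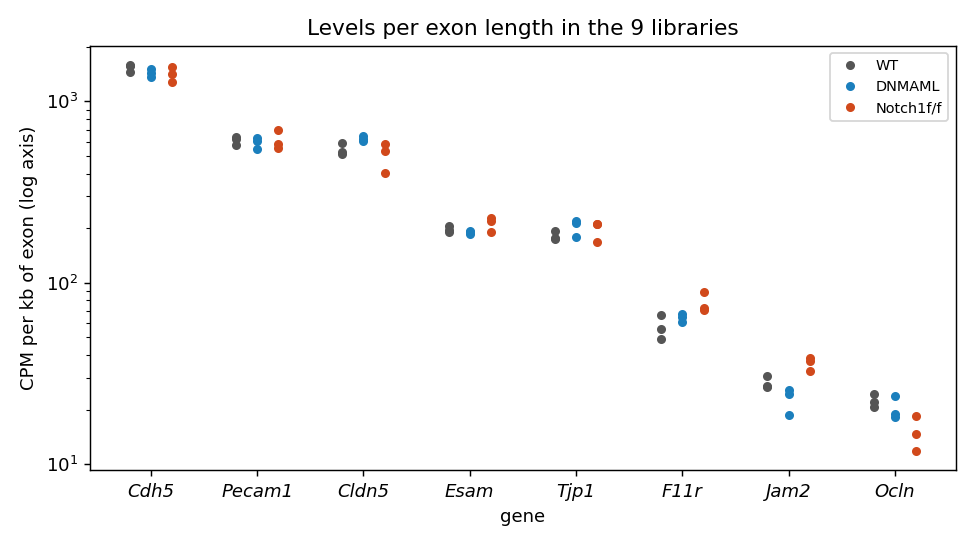
Level of each junction gene per kilobase of exon (vertical log axis, CPM per kb) in the 9 libraries, 1 point per library, coloured by genotype and ordered by the WT mean. Cdh5 lies highest (1277 to 1584 CPM per kb) and Ocln lowest (11.8 to 24.4 CPM per kb).

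Cdh5 (ENSMUSG00000031871, chromosome 8, 104828257 to 104871143, GRCm39) encodes VE-cadherin, the adhesion protein of endothelial adherens junctions. WT libraries had 6142, 6656 and 6625 CPM of Cdh5, DNMAML libraries 5747, 6310 and 6014 CPM, and Notch1f/f libraries 5971, 5366 and 6497 CPM. The genotypes overlapped throughout. The level in DNMAML was 0.930-fold that in WT (95% interval 0.751 to 1.15) and the level in Notch1f/f 0.918-fold (0.741 to 1.14).

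Pecam1 (ENSMUSG00000020717, chromosome 11, 106545043 to 106641454), whose product PECAM-1 binds its like across the cell border, had 3604, 3982 and 3870 CPM in WT. It had 3408, 3901 and 3789 CPM in DNMAML and 3430, 3620 and 4353 CPM in Notch1f/f libraries. These groups overlapped too, and replicate 1 was the lowest library of every genotype. The fold against WT was 0.969 (95% interval 0.777 to 1.21) in DNMAML and 0.995 (0.798 to 1.24) in Notch1f/f.

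Claudin-5, the main sealing claudin of endothelium, is the product of Cldn5 (ENSMUSG00000041378, chromosome 16, 18595597 to 18597012), a gene with a single exon in the table. Cldn5 had 744, 729 and 833 CPM in WT, 882, 853 and 917 CPM in DNMAML and 759, 574 and 827 CPM in Notch1f/f. No library of another genotype reached the lowest DNMAML library. The log2 difference between DNMAML and WT was 0.20 (SE 0.15), or 1.15-fold (95% interval 0.918 to 1.44), and that between Notch1f/f and DNMAML was -0.30 (SE 0.15). Neither passed (edgeR quasi-likelihood test, adjusted p = 0.999 and 0.838 by Benjamini-Hochberg). Against WT, Cldn5 in Notch1f/f was 0.936-fold (0.747 to 1.17), with replicate 2 below all other libraries.

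Tjp1 (ENSMUSG00000030516, chromosome 7, 64945913 to 65177529) encodes ZO-1, the scaffold under claudins and occludin. It had 1370.4, 1388 and 1504 CPM in WT, 1405, 1717 and 1678 CPM in DNMAML and 1639.8, 1317.5 and 1651 CPM in Notch1f/f. The genotypes overlapped, with folds against WT of 1.13 (95% interval 0.905 to 1.40) in DNMAML and 1.08 (0.869 to 1.34) in Notch1f/f. ESAM, an immunoglobulin protein found on endothelium and platelets, comes from Esam (ENSMUSG00000001946, chromosome 9, 37439374 to 37449615). Esam had 547, 592 and 564 CPM in WT, 531, 553 and 548 CPM in DNMAML and 547, 651 and 631 CPM in Notch1f/f. Its groups overlapped, and its folds against WT were 0.958 (0.800 to 1.15) and 1.07 (0.897 to 1.29).

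Ocln (ENSMUSG00000021638, chromosome 13, 100633015 to 100689226) encodes occludin, a membrane protein of tight junctions that epithelium uses as well. Ocln had 86.7, 103 and 93.1 CPM in WT, 80.1, 76.9 and 100.5 CPM in DNMAML and 62.0, 49.9 and 77.6 CPM in Notch1f/f. Every Notch1f/f library was below every WT library, while Notch1f/f replicate 3 overlapped with DNMAML. From WT to Notch1f/f the log2 difference of Ocln was -0.58 (SE 0.17), or 0.670-fold (95% interval 0.520 to 0.864). It did not pass over all genes with edgeR (unadjusted p = 0.00503, adjusted p = 0.13 by Benjamini-Hochberg), while DESeq2 gave an adjusted p = 0.0494. Between Notch1f/f and DNMAML the log2 difference of Ocln was -0.44 (SE 0.17), which did not pass either (edgeR, Benjamini-Hochberg adjusted p = 0.676). DNMAML had 0.911-fold the Ocln level of WT (0.707 to 1.17). Over the settings tried, Ocln was lower in Notch1f/f than in WT in each, by log2 differences of -0.75 to -0.43 and adjusted p values of 0.0215 to 0.442.

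F11r (ENSMUSG00000038235, chromosome 1, 171265103 to 171292171) encodes JAM-A, a junctional adhesion molecule of endothelium, epithelium and platelets. Its libraries had 130.4, 149 and 177 CPM in WT, 161, 172 and 179 CPM in DNMAML, and 189, 238 and 193 CPM in Notch1f/f. Each Notch1f/f library was above every other library, and DNMAML overlapped with WT. The log2 difference of F11r between Notch1f/f and WT was 0.44 (SE 0.14), or 1.36-fold (95% interval 1.097 to 1.68), and did not pass (edgeR, unadjusted p = 0.00893, adjusted p = 0.166). Over all settings it was 0.34 to 0.57, with adjusted p values of 0.0752 to 0.533. Against DNMAML the fold was 1.21 (0.976 to 1.498), and DNMAML was at 1.12-fold the WT level (0.907 to 1.39).

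Jam2 (ENSMUSG00000053062, chromosome 16, 84571011 to 84622816) encodes JAM-B, which binds JAM-C on the facing cell. WT libraries had 160.5, 162 and 186 CPM of Jam2, DNMAML libraries 112, 155 and 147 CPM, and Notch1f/f libraries 225, 232 and 198 CPM. The 3 genotypes did not overlap: DNMAML was lowest, WT between and Notch1f/f highest. How many of all genes separate the 3 genotypes in this way was not counted. Jam2 had the largest difference of the 8 genes, between Notch1f/f and DNMAML, at 0.66 on the log2 scale (SE 0.14), or 1.58-fold (95% interval 1.28 to 1.96). The edgeR quasi-likelihood test did not call it over all genes (unadjusted p = 0.000571, Benjamini-Hochberg adjusted p = 0.318), and DESeq2 did (adjusted p = 0.00574). Against WT the log2 differences of Jam2 were -0.29 (SE 0.14) in DNMAML and 0.37 (SE 0.14) in Notch1f/f, with Benjamini-Hochberg adjusted p = 0.872 and 0.268 in the same edgeR test. Their 95% intervals as folds were 0.658 to 1.01 and 1.04 to 1.60.

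**Figure D2:**
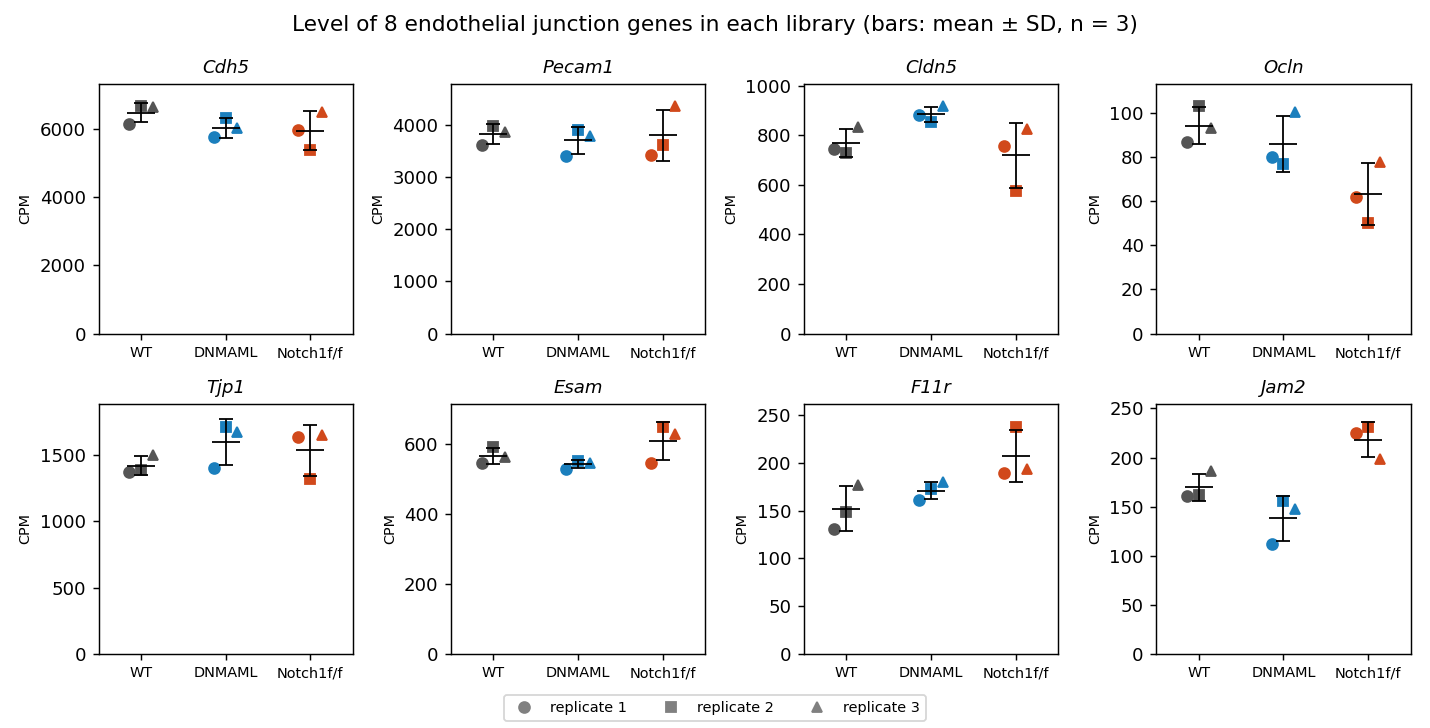
CPM (vertical axes from 0) of each of the 8 junction genes by genotype, 1 point per library with the replicate number as its shape, and bars for the mean ± SD (n = 3). Ocln lies lower and F11r and Jam2 higher in Notch1f/f than in WT without overlap, while Cdh5, Pecam1, Tjp1 and Esam overlap between genotypes.

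Promoter sequence is shown for F11r and Ocln, the members with the highest and the lowest log2 difference between Notch1f/f and WT. RefSeq promoter windows (250 bases before to 50 bases after a gene start, build GRCm38.p6, which differs from the build of the counts) were at hand for 4 of the 8 genes, F11r, Ocln, Tjp1 and Cldn5, with 5 windows in all because Ocln has a pair of starts. They were searched on both strands for TGGGAA, the core bound by Rbpj, through which Notch acts on DNA, and for CCGGAA, a core bound by ETS factors such as the endothelial factor Erg. The first motif was in 25.6% and the second in 14.9% of all 32851 windows. Among the 5 windows F11r held the first, on the reverse strand at bases 35 to 40 after the start, and the upstream Ocln window held the second at -227. The windows of Cldn5 and Tjp1 and the other Ocln window had no match to either. A match is a description of letters and not of binding. The sequences read 5′ to 3′ along the gene, and capitals mark the match. The 250 bases before the F11r start have no match and stand in lower case.
F11r, 250 bases before the start, chr1:171437311-171437560, plus strand: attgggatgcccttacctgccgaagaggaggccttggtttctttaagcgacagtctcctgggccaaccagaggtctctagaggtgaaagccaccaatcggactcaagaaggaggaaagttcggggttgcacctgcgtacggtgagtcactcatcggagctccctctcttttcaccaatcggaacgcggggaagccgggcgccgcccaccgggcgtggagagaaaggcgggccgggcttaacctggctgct
F11r, 30 bases from base 13 after the start with TTCCCA, the reverse complement of TGGGAA, chr1:171437573-171437602, plus strand: agggcagtggatcgcgaggctgTTCCCAtt
Ocln, 250 bases before the upstream start with CCGGAA, chr13:100552719-100552968, minus strand: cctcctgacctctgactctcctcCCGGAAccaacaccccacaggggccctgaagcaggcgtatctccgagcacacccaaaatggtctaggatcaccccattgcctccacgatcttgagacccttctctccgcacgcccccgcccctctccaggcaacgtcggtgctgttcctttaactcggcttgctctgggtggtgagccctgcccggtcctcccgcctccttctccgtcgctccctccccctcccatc

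Setting DNMAML against WT asks what differs with a construct that by common usage blocks transcription through Notch receptors. Whether such transcription was blocked in these libraries was not tested. None of the 8 junction genes passed in this comparison. Cldn5 (higher) and Jam2 (lower) were the 2 genes whose libraries did not overlap. The edgeR quasi-likelihood test called 0 of 8 genes at a Benjamini-Hochberg adjusted p below 0.05, where it called 0.00513% of all genes tested. At an unadjusted p below 0.05 it had 0 of 8 (5.97% of all genes), and DESeq2 and limma-voom called 0 of 8 as well. Groups did not overlap in 14.4% of all genes, with DNMAML higher in 7.58% and lower in 6.84%. The median absolute log2 difference of the 8 genes was 0.15, and that of all genes 0.24. In WT the 8 lay above 89.7% to 99.96% of the tested genes per kb, and genes of like level were not compared. All 8 intervals lay within 0.658-fold and 1.44-fold. Same-numbered WT and DNMAML libraries deviated together, so the number was also fitted as a block. That pairing was read from the same counts and no label states it, so calls gained with the block are no independent support. In the 6 WT and DNMAML libraries alone 78 genes passed without the block and 310 with it. In all 9 libraries 1 passed without and 4 with it. Of the 8 genes 0 passed in each of these fits.

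In the comparison of Notch1f/f with WT, which asks what differs with the Notch1 allele, F11r and Jam2 were higher and Ocln lower without overlap, and none passed over all genes. The edgeR quasi-likelihood test called 0 of 8 (0.836% of all genes), with 3 of 8 at an unadjusted p below 0.05 (13.4% of all genes). These were the same 3 genes, and 17.8% of all genes had groups without overlap, with Notch1f/f higher in 8.5% and lower in 9.33%. DESeq2 called Ocln alone and limma-voom 0. The median absolute log2 difference of the 8 was 0.12, against 0.33 over all genes, which were not matched for level. Intervals of Cdh5, Pecam1, Cldn5, Tjp1 and Esam held a fold of 1, and all 8 lay within 0.520-fold and 1.68-fold.

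Between Notch1f/f and DNMAML, F11r and Jam2 were higher in Notch1f/f and Cldn5 lower without overlap. The edgeR quasi-likelihood test called 0 of 8 (0.0205% of all genes), and 2 of 8, Jam2 and Ocln, had an unadjusted p below 0.05 (6.37% of all genes). Groups did not overlap in 9.72% of all genes, with Notch1f/f higher in 4.4% and lower in 5.32%. DESeq2 called Jam2 alone and limma-voom 0. The median absolute log2 difference of the 8 was 0.22, against 0.25 over all genes, again not matched for level. The 3 comparisons share their libraries in pairs, so their values are not independent of each other. In bulk libraries such as these, fewer cells of a kind and less RNA per cell cannot be told apart.

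**Figure D3:**
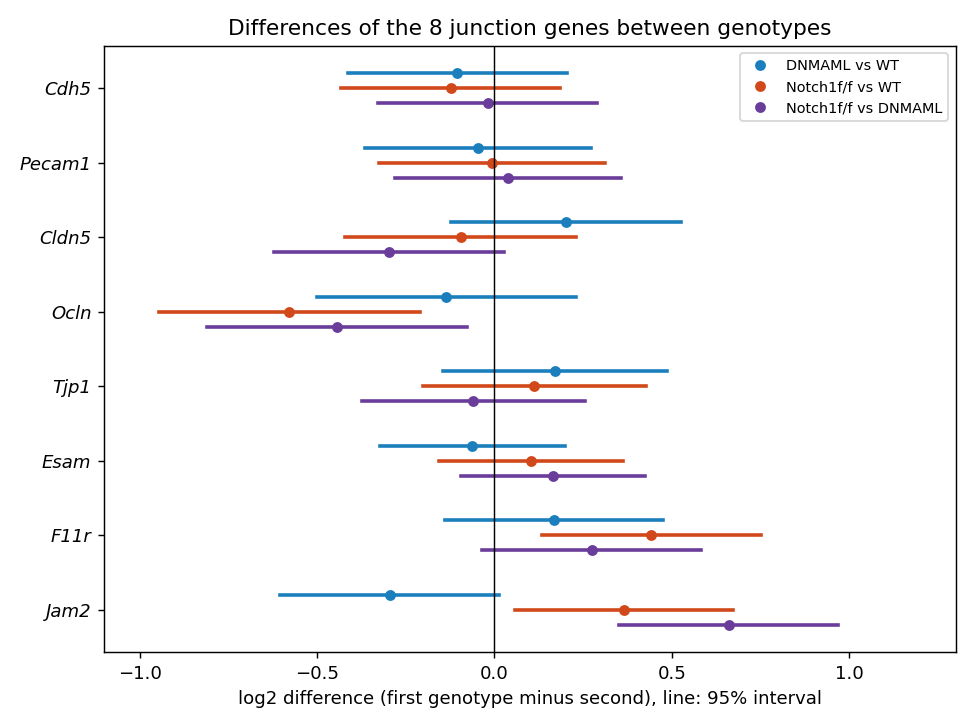
Log2 difference (horizontal axis, first genotype minus second) of each junction gene in the 3 comparisons, with the 95% interval from the edgeR fit as a line. The intervals of Ocln lie below 0 and those of F11r and Jam2 above 0 for Notch1f/f against WT, and no difference passed after adjustment over all genes.

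The spread between libraries of a genotype differed among the junction genes. The pooled SD within genotypes on the log2 scale was 0.09 for Esam and 0.10 for Cdh5. They lay at percentiles 2.96 and 4.74 of the 9369 tested genes with a mean of at least 10 CPM, whose median was 0.22. Those genes were not matched for level, while Esam and Cdh5 had means of 574 and 6147 CPM over the 9 libraries. Pecam1 and Tjp1 had 0.13 and 0.15, at percentiles 14.2 and 21.8. Cldn5, F11r and Jam2 had 0.17 each, at percentiles 32.1 to 33.1, and Ocln had 0.23, at percentile 53.8 and thus above the median. Coefficients of variation in WT ran from 3.95% for Esam to 15.4% for F11r. In Notch1f/f they ran from 8.11% for Jam2 to 22.0% for Ocln. Within that genotype, replicate 2 had the lowest Ocln, Cldn5, Tjp1 and Cdh5 and the highest F11r, Jam2 and Esam, and it also had the lowest Notch1. Without that replicate the log2 difference from WT was -0.43 for Ocln and 0.34 for F11r, and for Cldn5 it was 0.05 in place of -0.10.

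Other genes of the junction were read from 4 lists with 69 genes, of which 68 were tested. They were 15 partners of adherens junctions, 20 genes of tight junctions (19 tested), 8 molecules of leukocyte passage and 26 regulators. The lists were chosen with earlier results of these data known, and all genes were not matched to them for level. The counts beside the shares of all genes are therefore no test of the lists. In DNMAML against WT the edgeR quasi-likelihood test called 0 of the 68 (0.00513% of all genes). At an unadjusted p below 0.05 it had 7 of the 68, 5 higher and 2 lower, where all genes had 5.97%. In Notch1f/f against WT it called 2 higher, Jam3 of the tight junction list and Cd34 of the passage list, and 0 lower (0.836% of all genes). At an unadjusted p below 0.05 there were 20 of the 68, 8 higher and 12 lower, where all genes had 13.4%. The 15 adherens partners and 26 regulators had 0 calls each. Between Notch1f/f and DNMAML it called 0 (0.0205% of all genes), with 14 at an unadjusted p below 0.05, 5 higher and 9 lower, where all genes had 6.37%. The median log2 differences of the 68 were 0.09, -0.01 and -0.10 in these comparisons, where all genes had 0.01, 0.02 and 0.00. DESeq2 called 1, 9 and 2 of the 68, and limma-voom 0, 1 and 0. In the 6 WT and DNMAML libraries alone 1 of the 68, Cd34, passed in DNMAML without the block by number. With that block, whose pairing was read from the same counts, 4 passed: Cd34, Magi3 and Tiam1 higher and Ptprb lower.

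Jam3 (ENSMUSG00000031990, chromosome 9, 27008680 to 27066717, GRCm39) encodes JAM-C, the partner of the Jam2 product. It had 5.25, 5.51 and 4.28 CPM in WT, 5.85, 9.24 and 7.71 CPM in DNMAML and 15.6, 18.0 and 10.7 CPM in Notch1f/f. The 3 genotypes did not overlap, with WT lowest and Notch1f/f highest, and the share of all genes that do so was not counted. Jam3 rose in Notch1f/f against WT by 1.56 on the log2 scale (SE 0.30, edgeR, adjusted p = 0.0383). The log2 difference in DNMAML was 0.60 (SE 0.30), which did not pass (adjusted p = 0.898). The call was lost without any one of the WT replicates 1, 2 and 3 (edgeR, adjusted p = 0.15, 0.121 and 0.126). It was lost without DNMAML replicate 3 (0.0659) or Notch1f/f replicate 2 (0.154), and without the 3 libraries of low immediate early genes (0.0825). It was also lost in limma-voom (0.0788), with only the 2 groups in the fit (0.0543) and with the replicate block in these 2 groups. The log2 difference was 1.40 to 1.74 throughout. The gene shares 1159 of its 3200 exon bases with Gm48796 on the other strand, which had 5 to 39 counts in WT and 14 to 95 in Notch1f/f. The recorded counting had no strand option, so reads of the shared bases cannot be told apart and the value is uncertain.

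Cgnl1 encodes paracingulin, a linker of tight and adherens junctions to the cytoskeleton. WT libraries had 133, 101 and 136 CPM of Cgnl1, DNMAML libraries 217, 197 and 156 CPM, and Notch1f/f libraries 183, 234 and 227 CPM. Both other genotypes were above WT without overlap. The log2 difference was 0.62 (SE 0.16) in DNMAML and 0.80 (SE 0.17) in Notch1f/f, and neither passed (edgeR, adjusted p = 0.311 and 0.0503). The second lay at the threshold, and it passed in DESeq2 (adjusted p = 0.00119) and with size factors of the RLE method (0.0495). Cgnl1 is named because its value lay at the threshold, which was seen in the data.

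Cd34, a surface sialomucin, had 389, 329 and 482 CPM in WT, 720, 882 and 770.2 CPM in DNMAML and 795, 1435 and 1066 CPM in Notch1f/f. It rose in Notch1f/f by 1.46 (SE 0.21) on the log2 scale (edgeR, Benjamini-Hochberg adjusted p = 0.016). This call was lost without WT replicate 1 or 2 (0.0782 and 0.0683) and with the replicate block in only the 2 groups compared. In DNMAML the log2 difference of Cd34, 0.98 (SE 0.21), did not pass (edgeR, adjusted p = 0.17), while DESeq2 called it (0.0016). Cd34 shares 148 exon bases with Gm16897 on the other strand. Among the most abundant adherens partners, Ptprb encodes VE-PTP, the phosphatase bound to VE-cadherin. Ptprb had 4668, 5880.2 and 4759 CPM in WT, 2658, 3706 and 3975 CPM in DNMAML and 3896, 2204 and 3280.4 CPM in Notch1f/f. It was below WT in every library of both genotypes, with log2 differences of -0.57 (SE 0.22) and -0.71 (SE 0.22) that did not pass (edgeR, Benjamini-Hochberg adjusted p = 0.698 and 0.16). DESeq2 called Ptprb in Notch1f/f against WT (adjusted p = 0.0311). With the block by number in the 6 WT and DNMAML libraries Ptprb fell in DNMAML by 0.58 (edgeR, adjusted p = 0.0393). The pairing in that block was read from the same counts, so this call is no independent support.

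The other abundant partners lay closer to WT. Jup, which encodes plakoglobin, and Ctnna1, which encodes alpha-catenin, had log2 differences of -0.07 and -0.03 in DNMAML and -0.16 each in Notch1f/f. Of the tight junction list Jcad had 0.08 in DNMAML and -0.000476 in Notch1f/f, and Cdc42bpb had -0.04 and 0.08. Of the passage molecules, the sialomucin gene Podxl had -0.30 in DNMAML and -0.02 in Notch1f/f, Icam2 had -0.25 and -0.43, and Mcam had 0.15 and 0.40. The regulators Plvap, Sptbn1 and S1pr1, which encode a diaphragm protein, a spectrin and a sphingosine phosphate receptor, had -0.12, -0.10 and -0.09 in DNMAML. Their log2 differences in Notch1f/f were -0.17, -0.35 and -0.22. None of these passed.

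**Figure D4:**
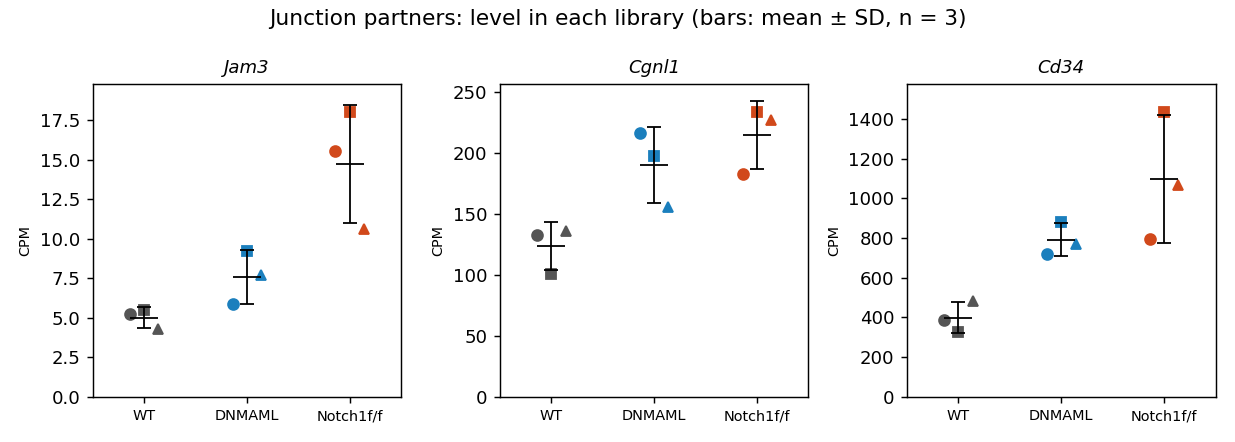
CPM (vertical axes from 0) of Jam3, Cgnl1 and Cd34 by genotype, 1 point per library with the replicate number as its shape (circle 1, square 2, triangle 3), and bars for the mean ± SD (n = 3). All Notch1f/f libraries lie above all WT libraries for each gene, and Jam3 has 10.7 to 18.0 CPM there against 4.28 to 5.51 in WT.

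RNA of other lung cells was present, and several of the 8 genes are also used by such cells. The 20 epithelial markers summed to 520 to 3787 CPM in WT, 311 to 2007 in DNMAML and 213 to 1415 in Notch1f/f, with Sftpc, a surfactant gene, first at 65.9 to 1876 CPM over the 9 libraries and Sftpa1 next. All 20 had a negative log2 difference in Notch1f/f against WT, and 0 passed. Epcam was at 0.499 to 10.9 CPM. Ocln was lower in Notch1f/f as well. In the order of the replicates the epithelial sums were 1751, 520 and 3787 CPM in WT, 1906, 311 and 2007 CPM in DNMAML and 213, 699 and 1415 CPM in Notch1f/f. The library with the most Ocln was the one with the lowest epithelial sum in WT, and the one with the highest in DNMAML and in Notch1f/f. Of 11 mural markers 10 were lower in Notch1f/f than in WT and 5 passed as lower, where 0.836% of all genes passed in either direction. The sum of the mural markers was 625 to 939 CPM in WT and 168 to 310 in Notch1f/f. Gucy1a1 and Pdgfrb were the most abundant of them. The part of epithelial and mural RNA in the difference of Ocln was not tested.

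Platelets carry ESAM and JAM-A. The 10 platelet markers (9 tested), led by Ppbp and Itga2b, summed to 125 to 597 CPM in WT, 75.7 to 1412 in DNMAML and 38.7 to 488 in Notch1f/f. The 15 leukocyte markers (13 tested), led by Lyz2 and Laptm5, summed to 126 to 836 CPM in WT, 390.1 to 762 in DNMAML and 157 to 369 in Notch1f/f. Most of that sum was Lyz2, with means of 432, 370 and 171 CPM in these genotypes, so it does not show the direction of the others. By replicate, Lyz2 had 385, 99.8 and 812 CPM in WT, where Sftpc had 702, 169 and 1876 CPM. Ptprc had 4.99, 2.95 and 0.408 CPM there. In DNMAML the libraries with the most Lyz2 and the most Sftpc differed. Which cells gave the Lyz2 RNA was not tested, so the sum is no measure of leukocytes. Of the 13 tested leukocyte markers, 12 were higher in DNMAML than in WT (median log2 difference 2.24) and 12 in Notch1f/f (0.95). In both comparisons 0 of them passed. Ptprc, which encodes CD45, was at 0.408 to 28.0 CPM. The 10 fibroblast markers, led by Mfap4 and Pdgfra, summed to 351 to 1153, 394 to 1601 and 186 to 709 CPM. The 7 markers of lymphatic endothelium, led by Lyve1 and Flt4, summed to 949 to 1011, 818 to 923 and 758 to 1043 CPM. Most of that sum was Lyve1 and Flt4, with means of 387 and 328 CPM over the 9 libraries. Prox1 of the same list had 4.94 to 13.7 CPM and Pdpn 4.03 to 13.8 CPM, so the sum is no measure of lymphatic cells. The part of platelets, leukocytes, fibroblasts and lymphatic endothelium in the differences of F11r and Jam2 was not tested. The 15 cell cycle markers summed to 23.5 to 26.0 CPM in WT, 314 to 404 in DNMAML and 83.6 to 510.2 in Notch1f/f. Against WT, 10 of them passed as higher in Notch1f/f (0.836% of all genes passed in either direction). In DNMAML 1 passed as higher (0.00513% of all genes), and all 15 were higher without overlap (7.58% of all genes).

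**Figure D5:**
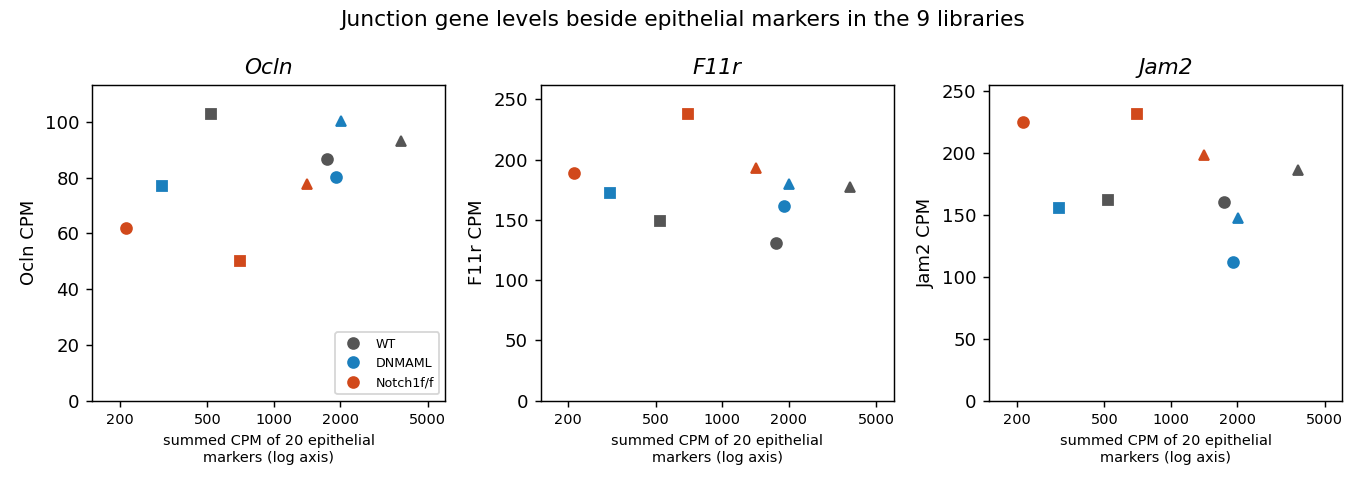
CPM of Ocln, F11r and Jam2 (vertical axes from 0) against the summed CPM of 20 epithelial markers (horizontal log axis) in the 9 libraries, coloured by genotype with the replicate number as shape (circle 1, square 2, triangle 3). The epithelial sums span 213 to 3787 CPM over the 9 libraries, and 213 to 1415 CPM in Notch1f/f. The Notch1f/f libraries lie highest for F11r and Jam2, and the part of epithelial RNA was not tested.

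Leaving out the 3 libraries of low immediate early genes gave log2 differences of -0.50 for Ocln, 0.48 for F11r and 0.31 for Jam2 in Notch1f/f against WT, and 0 of the 8 genes passed in each comparison. That choice was made after the data had been seen.

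The genes most alike in pattern were sought among 8976 tested genes with a mean of at least 10 CPM. Likeness was the root mean square difference of log2 CPM over the 9 libraries, after each gene was centred on its own mean. Tcim and Specc1 lay nearest to Jam2, at 0.09 and 0.12, where Jam2 itself spans 1.05 between its lowest and highest library. Tmem204 and Inpp5a lay nearest to Ocln, at 0.09 and 0.10, where Ocln spans 1.04. Tmem204 had 357, 361 and 354 CPM in WT, 309.6, 264 and 349.5 CPM in DNMAML and 217, 196 and 276 CPM in Notch1f/f. F11r was nearest to Memo1 and Ftsj3 (0.09 each, span 0.87), and Cldn5 to Commd8 and Ppp1r11 (0.06 and 0.07, span 0.68). The other members span 0.30 to 0.38, so that many genes of small change lie near them. Ufd1 and Ap2a2 were nearest to Cdh5, Traf7 and Exoc7 to Pecam1, Ssbp1 and Cpd to Tjp1, and Ano6 and Nploc4 to Esam.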

How the data were processed

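RNA of sorted lung endothelial cells was measured in 9 libraries. Per the labels' protocols they were made together with a strand-specific total RNA kit after removal of ribosomal RNA. The authors deposited raw read counts of each gene, without normalization, made with featureCounts 2.0.1 and Ensembl release 107 of GRCm39 without options for strand, read pairs or reads with several places, per the file headers. STAR 2.7 and the build mm10 are named in the submitters' processing notes, and that build differs from the header's. Between 76.6% and 89.0% of counts below 200 were even, so read pairs may enter as a pair of counts. Symbols came from a table of gene names, which matched 52073 of 56748 identifiers. None of the 8 genes shares exon bases with another gene of the table.

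Genes were kept by filterByExpr and tested with edgeR 4.0.16 in R 4.3.3 (TMM scaling, robust quasi-likelihood fit by genotype over the 9 libraries, Benjamini-Hochberg over all genes, threshold 0.05). CPM used TMM-scaled library sizes. The SE is the absolute log2 difference over the square root of F, and 95% intervals use it with the moderated degrees of freedom and are not adjusted. DESeq2 1.42.0, limma 3.58.1 (voom), other scalings and filters, fewer libraries and a replicate block were alternatives. The model was tested on simulated data.

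The members and gene lists were chosen with earlier results of these data known. Named genes are the 8 members, any gene of the 4 wider lists past the threshold, the 3 most abundant of each such list per kb, the 2 most abundant markers of each other cell list and the 2 genes most alike each member. A gene that this rule names is not reported here. No pair of libraries of a genotype had identical counts. Deviations from the genotype means (9369 genes) had correlations of 0.167 to 0.508 for same-numbered WT and DNMAML libraries and of -0.346 to -0.0239 for others. The number was therefore taken to pair them in the block fits, though no label states a pairing. What the number marks was not tested. With Notch1f/f, same-numbered libraries gave -0.261 to 0.225 (WT) and 0.00547 to 0.292 (DNMAML). Libraries of different number reached as high or higher, at -0.481 to 0.544 (WT) and -0.439 to 0.364 (DNMAML). The number was not taken to pair libraries there.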

Additional observations from a re-analysis of the deposited data

How the results depend on the processing

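The count of junction genes past the threshold (0 of 8) was kept in all 3 comparisons except with DESeq2 and without a filter, which called 1 (Ocln) in Notch1f/f against WT and 1 (Jam2) in Notch1f/f against DNMAML. The fit without a filter called 460, 1415 and 696 genes of all in DNMAML against WT, Notch1f/f against WT and Notch1f/f against DNMAML, and 3, 13 and 6 of the wider junction genes. DESeq2 called 213, 1061 and 174 of all genes and 1, 9 and 2 of the wider ones, and limma-voom 0 and 69 in the first 2 comparisons, with 1 wider gene in the second. With only the 2 groups compared, 78 genes passed in the first and 1 in the third, with 1 wider gene in each comparison against WT. The replicate block in 9 libraries gave 4 and 279 of all genes against WT, with 4 wider genes in Notch1f/f. In the 2 groups compared the replicate block gave 310, 92 and 8 of all genes, with 4 wider genes in DNMAML and 0 in Notch1f/f against WT; it changed no call of the 8. Without the 3 libraries of lowest Fos, chosen after seeing the data, 40, 348 and 48 genes passed, and 0 of the 8. Leaving out each library gave 0 to 94, 13 to 530 and 2 to 31 of all genes, 0 of the 8 in each, and 0 to 1, 0 to 6 and 0 wider genes. The cause of these moves was not tested.

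Ocln, F11r and Jam2 kept their direction in Notch1f/f against WT in every setting. Small differences changed sign. Pecam1 in Notch1f/f against WT (-0.01) was 0.012 with upper quartile factors, 0.035 with library totals, 0.090 without the 3 libraries of lowest Fos and -0.12 to 0.057 without single libraries. Cdh5 in Notch1f/f against DNMAML (-0.02) was 0.00225, 0.00792 and 0.00132 in the first 3 of these and -0.094 to 0.054 without single libraries. Without single libraries Pecam1 was -0.085 to 0.012 in DNMAML against WT and -0.077 to 0.099 in Notch1f/f against DNMAML, Cldn5 -0.21 to 0.052 in Notch1f/f against WT and Tjp1 -0.15 to 0.045 in Notch1f/f against DNMAML. Ocln was 0.014 in DNMAML against WT without the 3 libraries of lowest Fos. Depth limited the 8 genes little, since the lowest count of any was 1127 (Ocln).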
